A study of Mus musculus with 4 samples.

Results

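ATP-binding cassette (ABC) transporters were examined in N9 cells, an immortalised mouse microglial line, on 4 Affymetrix whole-transcript arrays. The members were all genes whose single symbol in the array annotation starts with Abca to Abcg followed by a digit, and 48 of the 22180 genes in the table met this rule. They comprised 16 Abca, 9 Abcb, 10 Abcc, 3 Abcd, 1 Abce, 3 Abcf and 6 Abcg genes, each with 1 probe set that carried its symbol alone. No measured value entered this rule, but it was set with earlier results of these data known.

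All arrays came from N9 cells grown in serum-containing medium, with no genetic change named in the labels. Of these, 2 arrays (vehicle 1 and vehicle 2) came from vehicle-treated cells, 1 from cells treated with 10 µM nimodipine and 1 from cells treated with 20 µM nimodipine. Nimodipine is a dihydropyridine, a class of drugs that block L-type voltage-gated calcium channels. The labels do not match vehicle 1 or 2 to a dose, and they state no treatment time. Separate cultures are not named either, so every p-value here reflects array-to-array scatter that could be technical. N9 is 1 line and stands for microglia in culture, not in the brain.

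ABC proteins bind and hydrolyse ATP in paired nucleotide-binding domains and, in most members, use it to move a substrate across a membrane. The ABCA proteins and part of the ABCG and ABCB groups move sterols, phospholipids and other lipids. The multidrug proteins of the ABCB, ABCC and ABCG groups export drugs, conjugates and signalling molecules, and most ABCD proteins carry very long-chain fatty acids into peroxisomes. In macrophages and microglia the family is best known for cholesterol export to lipoproteins, which lipid-loaded phagocytes depend on. The members were put into classes by known role: 18 lipid transporters, 11 drug efflux pumps, 2 peroxisomal, 3 mitochondrial, 2 lysosomal, 2 regulators of potassium channels, 4 soluble proteins without membrane domains, and 6 with unsettled substrates.

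Values are log2 expression after RMA, the robust multi-array average, in which a difference of 1 is a doubling. Over all probe sets and arrays the median was 5.04, with array medians from 5.02 to 5.06. A gene whose mean over the 4 arrays was below this median is called dim here, and RMA tends to understate the changes of such genes. The identity of the cells was checked against marker lists. Of 12 microglia and macrophage markers 11 were measured and 9 were at or above the median, among them Cd68 at a mean of 13.5 and Csf1r at 11.8, while Tmem119 at 4.68 and P2ry12 at 4.50 were below it. Against the vehicle mean 9 of the 11 were lower at 10 µM, with a median difference of -0.15 and a range from -0.77 (Itgam) to 0.16 (Spi1), and 6 were lower at 20 µM, with a median of -0.00. The median level of this list was 9.19 for vehicle 1, 9.06 for vehicle 2, 8.63 for the 10 µM array and 8.99 for the 20 µM array, a drop at 10 µM that is larger than the median difference because the middle gene changed from Itgam to Spi1. Of 20 markers of astrocytes, neurons, oligodendrocytes, fibroblasts and endothelium 19 were measured, 10 at or above the median, and the highest mean was that of the myelin gene Mbp at 7.57. The part of these shifts in the results was not tested.

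Of the ABC genes 33 of 48 (68.8%) were at or above the median, compared with 57.5% of all genes. The dim members were concentrated in 2 classes. All 6 members with unsettled substrates were dim, as were 7 of the 18 lipid transporters, whereas 10 of 11 drug efflux pumps and all mitochondrial and soluble members were at or above the median.

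Promoter windows from RefSeq on GRCm38.p6 (250 bases before to 50 after an annotated start, in the direction of transcription) matched 38 of the 48 members, with 45 windows in all. The windows printed here are those of Abca9 and Abcg2, among the members with the largest differences at 10 µM, and of Abca8b and Abca5 from the run around Abca9. The genes Abca8b, Abca8a, Abca9, Abca6 and Abca5 lie in this order next to each other on chromosome 11. No window is printed for Abca6. The Abca9 window is at chr11:110168104-110168403, that of Abca8b at chr11:109995796-109996095 and that of Abca5 at chr11:110337667-110337966, all on the minus strand. Abcg2 has 3 annotated starts on the plus strand of chromosome 6, of which the first, chr6:58584283-58584582, and the last, chr6:58640296-58640595, are shown. Each sequence runs 5′ to 3′, with every CG dinucleotide in capitals, because the counts of this dinucleotide are given for these starts.
Abca9: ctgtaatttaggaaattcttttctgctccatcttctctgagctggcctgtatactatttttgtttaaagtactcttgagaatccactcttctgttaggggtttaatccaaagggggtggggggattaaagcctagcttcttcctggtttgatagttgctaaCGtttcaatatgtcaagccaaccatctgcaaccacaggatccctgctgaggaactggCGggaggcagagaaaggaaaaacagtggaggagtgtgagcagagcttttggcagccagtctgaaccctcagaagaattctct
Abca8b: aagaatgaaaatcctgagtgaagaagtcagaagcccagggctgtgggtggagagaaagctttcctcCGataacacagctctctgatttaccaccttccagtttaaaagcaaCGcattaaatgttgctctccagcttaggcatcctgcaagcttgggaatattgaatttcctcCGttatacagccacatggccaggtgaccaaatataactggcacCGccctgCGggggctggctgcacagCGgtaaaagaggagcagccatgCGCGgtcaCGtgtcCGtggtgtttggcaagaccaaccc
Abca5: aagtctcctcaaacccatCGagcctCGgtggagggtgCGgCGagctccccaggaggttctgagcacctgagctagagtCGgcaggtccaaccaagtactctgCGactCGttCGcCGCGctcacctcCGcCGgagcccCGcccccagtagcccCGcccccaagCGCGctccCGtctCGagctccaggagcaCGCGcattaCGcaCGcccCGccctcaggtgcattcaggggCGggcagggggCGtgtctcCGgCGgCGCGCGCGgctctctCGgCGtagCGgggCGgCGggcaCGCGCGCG
Abcg2, first start: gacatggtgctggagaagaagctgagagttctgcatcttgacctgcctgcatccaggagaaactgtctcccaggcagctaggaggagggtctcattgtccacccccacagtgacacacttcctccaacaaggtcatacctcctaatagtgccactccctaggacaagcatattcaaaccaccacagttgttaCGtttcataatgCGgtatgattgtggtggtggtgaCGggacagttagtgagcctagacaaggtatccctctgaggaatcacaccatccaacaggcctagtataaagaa
Abcg2, last start: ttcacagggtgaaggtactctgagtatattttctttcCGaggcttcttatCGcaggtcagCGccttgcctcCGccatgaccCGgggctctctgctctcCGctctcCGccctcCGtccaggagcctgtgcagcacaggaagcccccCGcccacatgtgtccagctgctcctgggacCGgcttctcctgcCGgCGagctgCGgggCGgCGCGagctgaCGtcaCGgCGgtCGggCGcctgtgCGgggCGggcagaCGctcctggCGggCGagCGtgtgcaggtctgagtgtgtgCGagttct

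The Abca9 window held 2 CG dinucleotides and 23.3% of all 32851 windows hold as few. The Abca8b window held 10 and the Abca5 window 40, a count that 96.5% of all windows do not exceed. The window of Abca8a, which lies next to Abca9 and is not printed, held 4, close to the count at Abca9. At Abcg2 the first start had 3 and the last 28. The array values do not show which start was used. The 45 windows of the family had a median of 16 CG dinucleotides (range 1 to 45), compared with 7 over all windows.

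Motifs were searched on both strands as exact letters. In this search the DR4 element of the receptor LXR stands only for its perfect repeat, found in 5 of 32851 windows. Copies that differ from this repeat were not searched for. Absence of the perfect repeat from the member windows therefore does not show that a member, such as Abca1, lacks an LXR element. The E-box CACGTG was found in 6 of 45 member windows (13.3%) and in 7.15% of all windows, and its members were Abca1, Abca15, Abca8a, Abca8b, Abcc4 and Abcf1. The core ACGTG of the hypoxia response element, which lies within CACGTG, was in 22.2% of member windows and 19.6% of all. Both motifs hold a CG, and member windows have more CG dinucleotides (median 16, compared with 7 over all windows). The part of this difference in the shares was not tested. The antioxidant response element TGACNNNGC was in 15.6% and 12.4%, with Abca8b, Abcb1a, Abcc10, Abcc2 and Abcc4 as its members. None of these motifs was in the windows of Abca9, Abca5 or Abcg2. The DR4 element of the sterol-sensing receptor LXR and the amino acid response element TGATGNAAT were in no member window, and in 0.0152% and 0.965% of all windows.

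With the doses pooled, the members with the lowest values relative to vehicle were the lipid transporters Abca6 and Abca9 and the drug pump Abcg2, and none passed the test. In RNA from whole cultures, fewer cells of a kind and less RNA per cell cannot be told apart. No ABC gene was called at an adjusted p of 0.05 by limma with 2 arrays against 2, in which 0% of the 22180 genes were called. The smallest adjusted p among the members was 0.792 in limma. At an unadjusted p under 0.05 there were 5 members (10.4%), compared with 5.37% of all genes. Of these, Abca6 (log2 difference -0.93 ± 0.30 SE), Abca9 (-0.83 ± 0.15 SE) and Abcg2 (-0.61 ± 0.25 SE) were lower with nimodipine. The other two, Abca13 (0.37 ± 0.14 SE) and Abca17 (0.48 ± 0.16 SE), were higher and both dim.

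Counted by position alone, 9 members (18.8%) had both nimodipine arrays above both vehicle arrays, and 19.2% of all genes did. These were Abcc1, Abcc5, Abcc6, Abcc8, Abcf2, Abcg1 and the dim Abca12, Abca13 and Abca17. A further 11 members (22.9%) had both nimodipine arrays below both vehicle arrays, and 18.2% of all genes did. These were Abca1, Abca6, Abca7, Abca8b, Abca9, Abcb4, Abcb9, Abcb10, Abcd3, Abce1 and Abcg2. Both shares were near those of all genes. Of the 11 lower members 6 were lipid transporters, as were Abcg1, Abca12 and Abca13 among the 9 higher ones. This class holds 18 of the 48 members.

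**Figure D1:**
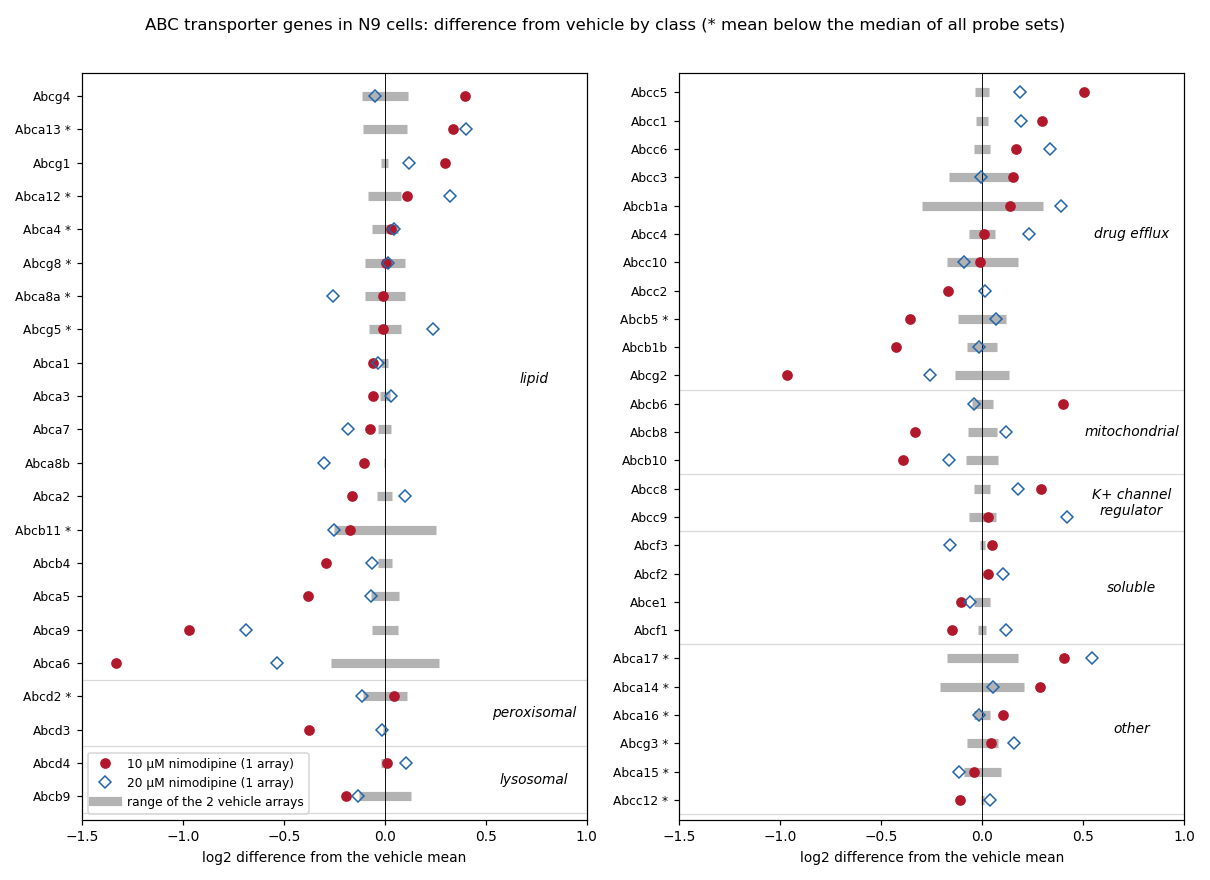
Log2 difference of each of the 48 members from the mean of the 2 vehicle arrays (x axis), grouped by class; red circles are the 10 µM array, open blue diamonds the 20 µM array, grey bars span the 2 vehicle arrays, and an asterisk marks a dim gene. Abca6 (-1.33), Abca9 (-0.97) and Abcg2 (-0.96) lie farthest from 0 at 10 µM, while 29 of the 48 members lie within 0.2 of it.

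Each dose was then set against the vehicle mean. At 10 µM Abca9 fell, while the larger difference of Abca6 and the similar difference of Abcg2 did not pass. With 1 array per dose, the test is a limma fit of 3 groups in which a single array is taken to scatter as the 2 vehicle arrays do, and the comparisons share those vehicle arrays. At 10 µM 1 of 48 members was called, Abca9, a share of 2.08% compared with 1.59% of all genes. Past 1 on the log2 scale there was also 1 member, Abca6, compared with 1.57% of genes. Abca6, Abca9 and Abcg2 were past 1.5-fold (6.25% of members), as were 6.77% of all genes. At an unadjusted p under 0.05 were 9 members (18.8%) and 16.9% of all genes, the members being Abca5, Abca6, Abca9, Abcb1b, Abcb6, Abcb10, Abcc5, Abcd3 and Abcg2. Lower values were seen for 25 members (52.1%) and 47.6% of genes. The family as a whole therefore had called and shifted members at about the rate of all genes.

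At 20 µM no member was called by limma, and 0% of all genes were. At an unadjusted p under 0.05 were 3 members, Abca9, Abca17 and Abcc9 (6.25%), and 6.39% of all genes. No member was past 1 on the log2 scale, and 0.0857% of genes were. Abca9 was the 1 member past 1.5-fold (2.08%), compared with 1.23% of genes. Lower values were seen for 23 members (47.9%) and 50.7% of genes. Between the 2 vehicle arrays 1 member, Abcb1a, differed by more than 1.5-fold, as did 1.9% of genes.

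The difference between the doses was tested as the contrast of 20 µM with 10 µM in the same limma fit. No member was called, compared with 0.316% of genes, and the smallest adjusted p of a member was 0.218 in limma. At an unadjusted p under 0.05 were 4 members (8.33%) and 13.7% of all genes. Among them Abca6 (difference 0.80), Abcg2 (0.71) and Abcb8 (0.45) were higher at 20 µM than at 10 µM, and Abcb6 (-0.44) was lower. There were 7 members (14.6%) with the doses on opposite sides of both vehicle arrays, compared with 18.9% of all genes.

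Abca9, a lipid transporter of the ABCA group, was the member that passed the test. Its log2 level was 6.01 and 5.88 in vehicle, 4.98 at 10 µM and 5.25 at 20 µM. Both nimodipine arrays were below both vehicle arrays, and the gap to the vehicles was several times the gap between them. At 10 µM it fell by 0.97 (SE 0.15, adjusted p = 0.0493 in limma), and this was the 255th lowest difference of 22180 genes. The difference was -1.03 against vehicle 1 and -0.90 against vehicle 2. The adjusted p ranged from 0.0102 to 0.0600 over the alternative limma fits, and the call was lost with all probe sets entered (0.0600) and with robust variance estimation (0.0510). At 20 µM the difference was -0.69 (adjusted p = 0.762 in limma). At 10 µM its level was just under the median of all values, where an array resolves further decreases poorly.

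Abca6, the chromosomal neighbour of Abca9 and also an ABCA lipid transporter, had the largest difference of the family. Its log2 level was 6.54 and 5.998 in vehicle, 4.93 at 10 µM and 5.74 at 20 µM. The groups did not overlap, but the vehicle arrays were 0.54 apart, and the 20 µM array differed from vehicle 2 by -0.26. At 10 µM the difference was -1.33 (SE 0.24, adjusted p = 0.0669 in limma), which did not pass. It was -1.60 against vehicle 1 and -1.06 against vehicle 2, and at 20 µM -0.53 against the vehicle mean. Over the alternative limma fits its adjusted p at 10 µM ranged from 0.0156 to 0.0826.

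The neighbours of this pair, named for their position, differed less from vehicle at 10 µM. Abca5, a lysosomal ABCA protein, had log2 levels of 8.11 and 8.25 in vehicle, 7.80 at 10 µM and 8.11 at 20 µM, a difference of -0.38 at 10 µM (adjusted p = 0.287 in limma). Abca8b had 6.34 and 6.34 in vehicle, 6.24 at 10 µM and 6.04 at 20 µM, so that its lower array was the 20 µM one. Abca8a was dim on all arrays, between 3.25 and 3.60. At 10 µM Abca8a differed by -0.01 and Abca8b by -0.10. In the P-glycoprotein run Abcb1b differed by -0.43 at 10 µM, its neighbour Abcb1a by 0.14 and Abcb4 by -0.29.

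**Figure D2:**
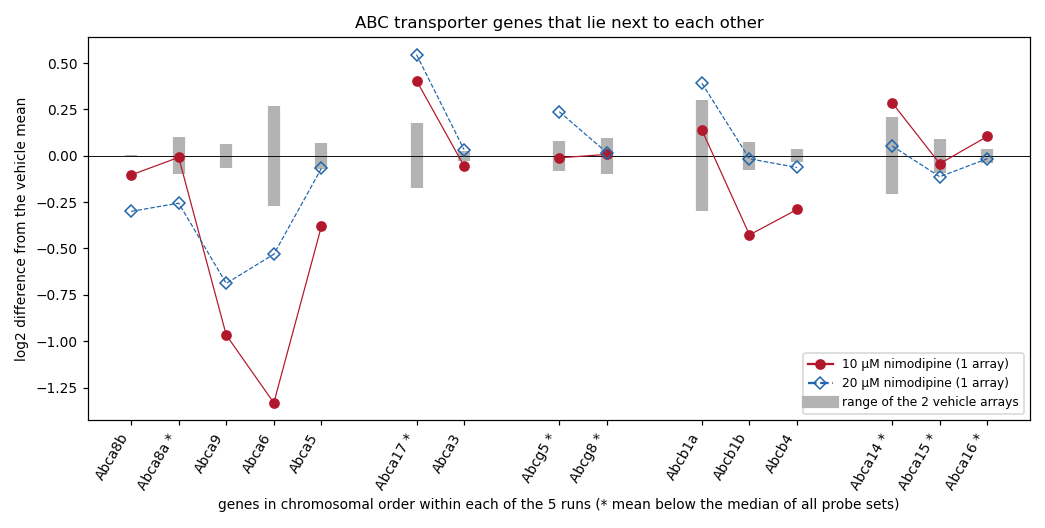
Log2 difference from the vehicle mean (y axis) for the 15 members that lie next to another member, in chromosomal order within 5 runs; red circles are 10 µM, open blue diamonds 20 µM, grey bars the range of the 2 vehicle arrays. In the first run Abca9 and Abca6 are below -0.9 at 10 µM while Abca8b and Abca8a on one side and Abca5 on the other are between -0.38 and -0.01.

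Among the sterol exporters Abca1 was close to vehicle, and Abcg1 and Abcg4 had higher values at 10 µM that did not pass. Abca1, which loads cholesterol onto apolipoprotein A-I and is named for that role, had log2 levels of 8.16 and 8.19 in vehicle, 8.12 at 10 µM and 8.14 at 20 µM. All 4 arrays lay within 0.1, and the difference at 10 µM was -0.06. Abcg1, which exports sterol to high-density lipoprotein, had 9.20 and 9.23 in vehicle, 9.52 at 10 µM and 9.33 at 20 µM. Both nimodipine arrays were above both vehicles, with a difference of 0.30 at 10 µM (1.23-fold, adjusted p = 0.368 in limma). Abcg4, its relative in brain, had 5.99 and 5.77 in vehicle, 6.28 at 10 µM and 5.83 at 20 µM. The 10 µM array was the highest, by 0.40 over the vehicle mean (adjusted p = 0.302 in limma), while the 20 µM array lay between the vehicles.

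In the lipid class as a whole 12 of 18 members were lower and 6 higher at 10 µM, with a median difference of -0.06, and 10 were lower and 8 higher at 20 µM, with a median of -0.04. Of its 11 members at or above the median, 9 were lower at 10 µM and 8 at 20 µM. Among all such genes 51.7% were lower at 10 µM and 54.9% at 20 µM. The median difference of all genes was 0.01 at 10 µM and -0.00 at 20 µM, and vehicle 2 minus vehicle 1 had a median of 0.05 in this class. Without vehicle 1 the class median at 10 µM was -0.0966 and without vehicle 2 it was 0.0153. At 20 µM it was -0.0387 and 0.00039, so its sign over all 18 members, dim ones included, depended on the vehicle array used. The share of lower members among the brighter ones was above that of such genes at both doses, with no test made, while the class median moved by about as much as between the vehicle arrays. Abca2 and Abca3 (in lysosomes and surfactant storage bodies), Abca7 (linked to phagocytosis) and Abcb4 (a phosphatidylcholine exporter of bile) differed by between -0.29 and -0.06 at 10 µM. The remaining members of the class, Abca4, Abca12, Abca13, Abcb11, Abcg5 and Abcg8, were dim, and differed by between -0.17 and 0.34.

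Abcg2, the breast cancer resistance protein, led the drug efflux class. Its log2 level was 7.36 and 7.09 in vehicle, 6.26 at 10 µM and 6.97 at 20 µM. The 10 µM array stood well below the rest, and the 20 µM array differed from vehicle 2 by -0.12. At 10 µM it was 1.95-fold lower (log2 difference -0.96, SE 0.17, adjusted p = 0.0663 in limma), which did not pass, and at 20 µM 1.196-fold lower. Over the alternative limma fits its adjusted p at 10 µM ranged from 0.0155 to 0.0797. Abca6, Abca9 and Abcg2 were the members outside the central 95% of all genes at 10 µM, a range from -0.74 to 0.58.

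The next members of the class differed in the other direction or less. Abcc5, an exporter of cyclic nucleotides and conjugates, had log2 levels of 8.12 and 8.19 in vehicle, 8.66 at 10 µM and 8.34 at 20 µM. Both nimodipine arrays were above both vehicles, and at 10 µM it was 1.42-fold higher (difference 0.51, SE 0.15, adjusted p = 0.172 in limma). Abcc1, which exports glutathione conjugates and leukotriene C4, had 10.37 and 10.31 in vehicle, 10.64 at 10 µM and 10.53 at 20 µM. It was 1.23-fold and 1.14-fold higher at the respective doses, and adjusted p at 10 µM was 0.378 in limma.

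P-glycoprotein is encoded by a pair of genes in the mouse. Abcb1b had log2 levels of 6.52 and 6.67 in vehicle, 6.17 at 10 µM and 6.58 at 20 µM. The 10 µM array was the lowest (difference -0.43, adjusted p = 0.248 in limma), and the 20 µM array lay between the vehicles. Abcb1a, given as its partner, had 6.36 and 5.76 in vehicle, 6.20 at 10 µM and 6.46 at 20 µM. Its vehicle arrays were 0.60 apart, the widest gap of the family, and the 10 µM array lay between them. The 2 genes have similar sequences, and how their probes divide the signal cannot be told here.

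The remaining drug efflux pumps, Abcc2, Abcc3, Abcc4, Abcc6, Abcc10 and the dim Abcb5, differed by between -0.36 and 0.17 at 10 µM. In the class 6 of 11 members were higher and 5 lower at 10 µM, with a median difference of 0.01, and 7 were higher and 4 lower at 20 µM, with a median of 0.07. Between the vehicle arrays the class median was -0.13, larger than at either dose. The mean at 10 µM, -0.06, had the opposite sign to the median. Without vehicle 1 the class median at 10 µM was 0.17 and without vehicle 2 it was -0.16, so its sign depended on the vehicle array used, and with equal array medians it was -0.0198.

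**Figure D3:**
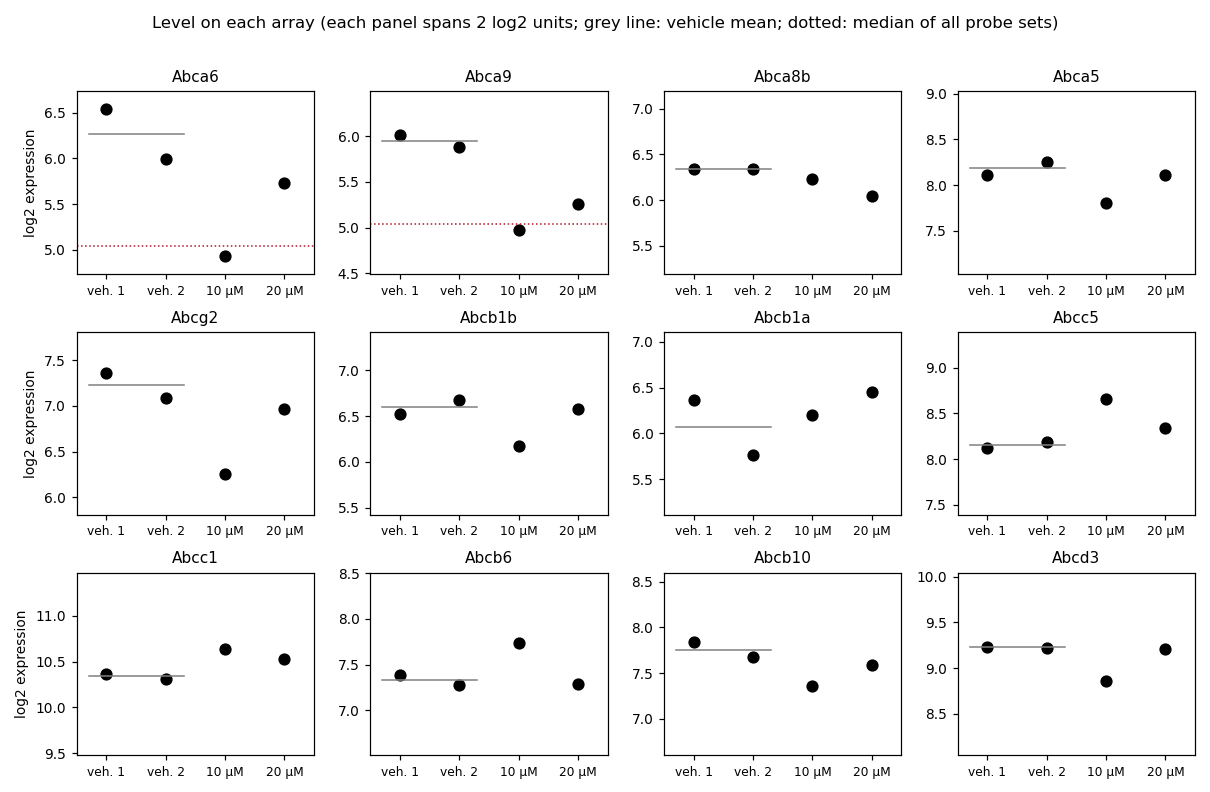
Log2 expression (y axis) on each of the 4 arrays for 12 members, with every panel spanning 2 log2 units; points are single arrays, the grey line is the vehicle mean and the dotted line the median of all probe sets. The 10 µM array is the lowest for Abca6 (4.93), Abca9 (4.98), Abca5 (7.80), Abcg2 (6.26), Abcb1b (6.17), Abcb10 (7.36) and Abcd3 (8.85), and the highest for Abcc5 (8.66), Abcc1 (10.64) and Abcb6 (7.73).

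The peroxisomal class rests on 2 genes. Abcd3, the major membrane transporter of peroxisomes, had log2 levels of 9.24 and 9.22 in vehicle, 8.85 at 10 µM and 9.21 at 20 µM. The vehicle and 20 µM arrays lay within 0.03, and the 10 µM array was apart, with a difference of -0.37 (1.295-fold lower, SE 0.14, adjusted p = 0.273 in limma). Abcd2, which carries very long-chain fatty acids, was dim at 4.83 and 4.61 in vehicle, 4.76 at 10 µM and 4.61 at 20 µM, with the nimodipine arrays within or next to the vehicle range. The mean of the 2 differences was -0.16 at 10 µM and -0.06 at 20 µM, and -0.12 between the vehicle arrays.

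Set side by side over all 4 arrays, the medians of the lipid, drug efflux and peroxisomal classes stayed close to 0. They rest on 18, 11 and 2 genes, so their spreads over the arrays cannot be compared between classes. After each member was centred on its own mean, the lipid class had medians of -0.01 and 0.05 in vehicle, -0.02 at 10 µM and 0.01 at 20 µM. The drug efflux class had 0.03 and -0.14 in vehicle, 0.01 at 10 µM and 0.07 at 20 µM. The peroxisomal pair had 0.11 and -0.00, then -0.11 at 10 µM and -0.01 at 20 µM. In the drug efflux class the 10 µM median lay between those of the vehicle arrays. The 20 µM median of this class was above both, but closer to vehicle 1 than vehicle 2 was. In the peroxisomal pair the 10 µM median was below those of both vehicle arrays. Abcd3, the member of this pair that was not dim, had centred values of 0.11 and 0.09 in vehicle. It had -0.28 at 10 µM and 0.08 at 20 µM. No test was made over members, which are not replicates.

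The mitochondrial members differed in both directions at 10 µM. Abcb6, a porphyrin transporter, had log2 levels of 7.38 and 7.28 in vehicle, 7.73 at 10 µM and 7.29 at 20 µM. Abcb10, which supports heme synthesis in the inner membrane, had 7.84 and 7.68 in vehicle, 7.36 at 10 µM and 7.59 at 20 µM. Abcb8, which has been linked to mitochondrial iron export, had 7.39 and 7.53 in vehicle, 7.13 at 10 µM and 7.58 at 20 µM. The 10 µM array was outside the vehicle range for all 3, by 1.32-fold higher for Abcb6, 1.31-fold lower for Abcb10 and 1.26-fold lower for Abcb8, with adjusted p of 0.257, 0.282 and 0.342 in limma. At 20 µM Abcb6 was within the vehicle range.

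The lysosomal members stayed near vehicle. Abcd4, which carries cobalamin out of lysosomes, had log2 levels of 8.003 and 7.97 in vehicle, 7.999 at 10 µM and 8.09 at 20 µM. Abcb9, a lysosomal peptide transporter, had 5.48 and 5.22 in vehicle, 5.16 at 10 µM and 5.22 at 20 µM, and vehicle 1 stood above the other three arrays.

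The sulfonylurea receptors, which are ABC proteins that regulate potassium channels and transport nothing themselves, were measured at low levels. Abcc9 had log2 levels of 5.34 and 5.48 in vehicle, 5.44 at 10 µM and 5.83 at 20 µM, so that the 20 µM array was the highest by 0.42 over the vehicle mean (1.34-fold, adjusted p = 0.762 in limma). Abcc8 had 5.03 and 5.11 in vehicle, 5.36 at 10 µM and 5.25 at 20 µM. Both its nimodipine arrays were above its vehicle arrays, with a difference of 0.29 at 10 µM.

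The soluble members, which act on ribosomes and translation, had even values over the arrays. Abce1, which splits ribosomes after termination, had log2 levels of 11.97 and 11.89 in vehicle, 11.83 at 10 µM and 11.87 at 20 µM. Abcf1, a translation initiation factor partner, had 9.40 and 9.36 in vehicle, 9.23 at 10 µM and 9.501 at 20 µM. Abcf2 had 9.51 and 9.504 in vehicle, 9.54 at 10 µM and 9.61 at 20 µM. Abcf3 had 7.68 and 7.66 in vehicle, 7.72 at 10 µM and 7.51 at 20 µM. All 4 genes differed from the vehicle mean by less than 0.2 at both doses.

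The members with unsettled substrates were all dim. Abca17 had log2 levels of 4.49 and 4.13 in vehicle, 4.72 at 10 µM and 4.86 at 20 µM, above both vehicles at both doses. Its difference at 20 µM was 0.55, outside the central 95% of all genes at that dose, and its vehicle arrays were 0.35 apart. Abca14 had 3.99 and 3.58 in vehicle, 4.07 at 10 µM and 3.84 at 20 µM, and only the 10 µM array was outside the vehicle range. Abcc12 had 4.83 and 4.85 in vehicle, 4.73 at 10 µM and 4.88 at 20 µM. Abca15, Abca16 and Abcg3 differed by between -0.04 and 0.10 at 10 µM.

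**Figure D4:**
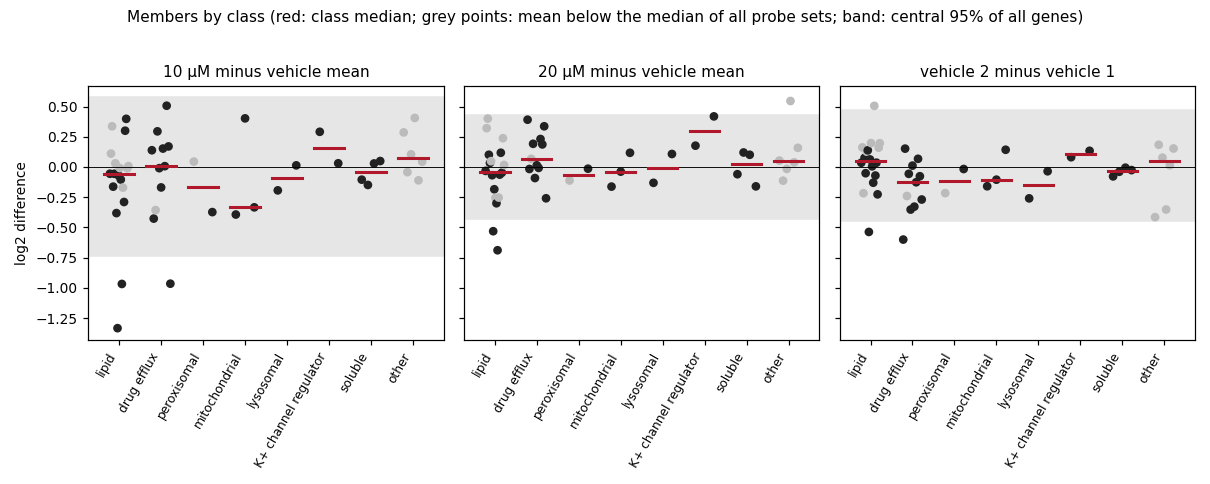
Log2 differences (y axis) of the members by class (x axis) for 10 µM minus the vehicle mean, 20 µM minus the vehicle mean and vehicle 2 minus vehicle 1; points are genes, grey where dim, red bars are class medians and the band is the central 95% of all genes. In each panel 45 of the 48 members lie inside the band.

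Genes that work with these transporters were read from lists chosen by role, with earlier results of these data known. Of 48 such genes 41 were measured, and 2 were called at 10 µM by limma, compared with the 1.59% of all genes given above, while 21 were higher and 20 lower. Keap1, the sensor that holds the oxidative stress factor NRF2 in check, had log2 levels of 9.74 and 9.37 in vehicle, 8.18 at 10 µM and 9.31 at 20 µM. It fell by 1.38 at 10 µM (SE 0.20, adjusted p = 0.0416 in limma), on the brighter of its 2 probe sets. Lpcat3, a phospholipid-remodelling enzyme and LXR target, had 9.31 and 9.30 in vehicle, 10.22 at 10 µM and 9.39 at 20 µM. It rose by 0.92 at 10 µM (SE 0.14, adjusted p = 0.0493 in limma). In both the 20 µM array was close to the vehicles.

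The lists themselves had small medians. The LXR and lipid acceptor list, with 9 of 10 genes measured, had a median difference of -0.03 at 10 µM, and the 6 xenobiotic sensors had -0.04. The peroxisomal oxidation list had 5 genes higher and 6 lower at 10 µM, led by the import factor Pex16 at 0.48, and its median was -0.07. The heme and iron-sulfur list had 5 of 7 measured genes higher, with a median of 0.21, led by the mitochondrial iron importer Slc25a37 at 0.85 (adjusted p = 0.104 in limma). Of the remaining lists Kcnj11, a pore of the potassium channels that the sulfonylurea receptors regulate, differed by 0.08, and the initiation factor Eif2s2 by 0.52.

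The ABC proteins that carry other symbols were near vehicle or did not pass. Tap1, which loads peptides for antigen presentation, had log2 levels of 8.52 and 8.40 in vehicle, 8.49 at 10 µM and 8.44 at 20 µM. Tap2, its partner, had 6.03 and 6.25 in vehicle, 5.67 at 10 µM and 6.29 at 20 µM, a difference of -0.47 at 10 µM (adjusted p = 0.238 in limma). Cftr, a chloride channel, was dim on all arrays, between 3.08 and 3.31.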

How the data were processed

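RNA of N9 cells was hybridised to 4 arrays, and the authors deposited log2 expression values per probe set. The submitters' processing notes name RMA and Affymetrix Expression Console (1.2.1.20). RMA corrects background, equalises the arrays and summarises probes, so it can narrow differences of dim genes. The array design's genome build is not given in the sources used here. Of 41345 probe sets 23521 had 1 symbol, and the probe set with the highest mean was kept per gene, giving 22180 genes. Scanner signals were not used here. Precision is limited by having 4 arrays.

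Fits used limma 3.58.1 in R 4.3.3 with Benjamini-Hochberg adjustment over all genes at 0.05: nimodipine against vehicle (residual df 2), and a fit of 3 groups for single doses (residual df 1). The scripts were tested on simulated data, with 200 of 22180 genes changed. At a log2 change of 1, made equal on both nimodipine arrays, the fit of nimodipine against vehicle recovered 76% of them. In the data the doses differed, for Abca6 by -1.33 and -0.53 from vehicle, which adds to the spread in that fit. The 76% therefore holds only for equal changes at both doses. The 10 µM fit recovered 0% at a log2 change of 1. At a log2 change of 2 the 10 µM fit recovered 99.5%. A member that was not called, at a single dose or with the doses pooled, is therefore not shown to be unchanged. Members, classes and lists were chosen with earlier results of these data known. Values on all arrays are given for members called or past 1, the 3 per class with the largest absolute difference at 10 µM and the 5 with the highest mean; other genes with values were named for their role or position. Abca1, Abca5, Abca8a, Abca8b and Abcb1a were so chosen after their values were seen. Alternatives changed the scaling, the probe sets, the variance estimate, the threshold and the arrays.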

Additional observations from a re-analysis of the deposited data

Results flagged for a closer look

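For 7 members (14.6%) 1 dose lay below both vehicle arrays and the other above both, a smaller share than the 18.9% of all genes. The values are the 20 µM minus the 10 µM log2 level. With 10 µM below and 20 µM above the vehicles, the difference was 0.26 for Abca2, 0.0890 for Abca3, 0.45 for Abcb8, 0.15 for Abcc12, 0.18 for Abcc2 and 0.27 for Abcf1. For Abcf3 the order was the reverse, at -0.21. Each dose had 1 array, so the opposite directions as such were not tested. The contrast of 20 µM with 10 µM in limma, in which a single array is taken to scatter as the 2 vehicle arrays do, called none of them.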

How the results depend on the processing

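No called value changed direction under the alternatives run. For nimodipine against vehicle, 0 members were past 1 on the log2 scale. With arrays left out in turn there were 0 to 1 (Abca6 without vehicle 2 or without the 20 µM array), and 3 at 1.5-fold. Without the 20 µM array this comparison is the 10 µM test itself, with the calls of that test, and so is no further evidence. At 10 µM the 1 called member became 3 (Abca6, Abca9 and Abcg2) with dim genes left out, equal array medians, cyclic loess, a variance trend or a threshold of 0.1, and 0 with all probe sets or robust variances. The 353 genes called became 1282 with dim genes left out, 227 with all probe sets, 768 with equal medians, 547 with cyclic loess, 1175 with a trend and 807 at a threshold of 0.1. The members past 1 at 10 µM numbered 1 to 3 with a vehicle array left out (3 without vehicle 2) and 3 at 1.5-fold. At 20 µM 1 member was past 1.5-fold. Between the doses the 70 genes called became 738 with dim genes left out, 41 with all probe sets, 352 with equal medians, 242 with cyclic loess, 731 with a trend and 333 at 0.1, and 2 members were past 1.5-fold. The drug efflux median ranged from -0.16 (without vehicle 2) to 0.17 (without vehicle 1) at 10 µM, and, with the same arrays left out, from -0.0719 to 0.18 for nimodipine against vehicle. The peroxisomal median at 10 µM was -0.37 with dim genes left out, which keeps 1 gene, and 0.0133 with Abcd4 added. Where no construction of the alternative gives it, the cause was not tested. Without a vehicle array the fit of 3 groups has no residual degrees of freedom and gives no test. No paired analysis was possible because each dose has 1 array and the nimodipine labels carry no number that is shared with a vehicle array.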
